A study of Mus musculus with 8 samples.

Results

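β-cells of mouse islets cultured for 18 h with the nitric oxide synthase inhibitor NMMA alone were compared with β-cells of islets left untreated, in 2 replicates. Barcodes were taken as β-cells when they had at least 200 genes and at most 5500 (replicate 1) or 6500 (replicate 2), at most 10% mitochondrial UMIs (unique molecular identifiers, each standing for 1 captured RNA molecule), at least 5000 UMIs, Ins1 and Ins2 at 10% or more of their UMIs, and Ins1 and Ins2 at 95% or more of the UMIs of Ins1, Ins2, Gcg, Sst, Ppy and Pyy. This rule gave 3401 β-cells of the 10101 barcodes of the 4 libraries, while the whole series holds 17426 barcodes in 8 libraries, with 5940 β-cells. The Untreated libraries gave 1622 and 536 β-cells in replicates 1 and 2, and the NMMA libraries gave 669 and 574.

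Each replicate was 1 pool of islets from 10 male C57BL/6 mice (C57BL6/J in the methods) of 12 to 16 weeks, divided over 4 conditions: Untreated, 2 mM NMMA, IL-1β with IFN-γ (Cytokines), and the cytokines with 2 mM NMMA (Cytokines+NMMA). The islets were treated intact and were dispersed afterwards, so the β-cells were exposed among the other cells of the islet. A replicate is therefore a pool of animals and not an animal. Droplet capture read the 3′ ends of RNA. The labels name the v2 reagent kit and the methods name another version. The NMMA comparison asks what the inhibitor does to β-cells in which cytokines have not raised nitric oxide production, and how large any such effect can be.

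NMMA (NG-monomethyl-L-arginine) is an analogue of arginine that competes with it at nitric oxide synthases. Mouse β-cells express the inducible synthase, encoded by Nos2, after exposure to IL-1β together with IFN-γ. Several of the gene groups described here belong to linked stress programmes. In the integrated stress response, phosphorylation of the initiation factor eIF2 lowers general translation while the transcription factor ATF4 is made, and ATF4 with its C/EBP partners raises genes of amino acid synthesis and uptake and of tRNA charging through C/EBP-ATF response elements. In the unfolded protein response, ATF6 and XBP1 raise chaperones of the endoplasmic reticulum through the endoplasmic reticulum stress element. Cholesterol synthesis genes are raised by SREBP-2, which INSIG1 holds back in the endoplasmic reticulum.

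Promoter sequences of the genes that rose are shown because 2 of these elements could be read in them. Of the 346 genes called in the comparison given further on, RefSeq (GRCm38.p6) gave a promoter, 250 bases before to 50 after the start, for 120 of the 152 higher and 156 of the 194 lower genes. The C/EBP-ATF response element was searched as TGATGCAA on both strands and was found in 0.895% of all 32851 promoters. Counted by gene, with a match in any of its promoters, it was found in 73 of 9879 tested genes with a promoter (0.739%). By that count it was in 7 of the 120, in 0 of the 156 and in 8 of the 28 genes with a promoter of the integrated stress response list. The windows shown run 5′ to 3′ on the strand of the gene, lie before the RefSeq start, and have the element in capitals. Those of called genes are at chr3:50443627-50443705 (Slc7a11, minus strand), chr2:119351023-119351082 (Chac1, plus), chr8:94386291-94386350 (Herpud1, plus), chr19:27216794-27216853 (Vldlr, plus) and chr15:11399659-11399699 (Tars, minus). In GENCODE the Vldlr gene begins at 27216484, so its window lies within the gene. The Tars window overlaps the GENCODE gene, which begins at 11399665 on the minus strand. The other 2 called genes with the element were Samd8 and Sfn. In the integrated stress response list Atf3, Nupr1 and Pycr1 also held it but were not called by edgeR (adjusted p = 0.15, 0.48 and 0.53). Fgf21 of that list held it and was not tested. Aars, a tRNA synthetase gene, held it and was not called (adjusted p = 0.057). The share in the list counts its members whether called or not.
Slc7a11: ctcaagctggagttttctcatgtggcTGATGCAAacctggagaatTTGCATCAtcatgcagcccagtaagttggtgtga
Chac1: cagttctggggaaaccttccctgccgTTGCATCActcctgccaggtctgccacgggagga
Herpud1: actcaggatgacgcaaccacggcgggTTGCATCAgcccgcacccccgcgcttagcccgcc
Vldlr: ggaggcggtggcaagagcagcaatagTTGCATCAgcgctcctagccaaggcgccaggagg
Tars: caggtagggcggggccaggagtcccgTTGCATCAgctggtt

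The endoplasmic reticulum stress element was searched as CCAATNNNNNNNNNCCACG on both strands. It was found in 0.119% of all promoters and, counted by gene, in 17 of 9879 tested genes (0.172%). By gene it was in 5 of the 120 called higher, in 0 of the 156 called lower and in 8 of the 20 of the chaperone list. The windows shown are at chr2:34771999-34772069 (Hspa5, plus), chr8:84847049-84847119 (Calr, minus), chr11:50325774-50325844 (Canx, minus) and chr15:88819494-88819564 (Creld2, plus), and the other called gene with the element was Hsp90b1. In GENCODE, which places the start of Hspa5 at 34771970, the Hspa5 window lies within the gene. The 8-base and 19-base motifs do not overlap in letters, but the second contains a CCAAT box, which 37.4% of all promoters hold. A match is a description of letters and not a bound site.
Hspa5: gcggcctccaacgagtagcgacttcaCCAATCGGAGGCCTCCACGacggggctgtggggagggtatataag
Calr: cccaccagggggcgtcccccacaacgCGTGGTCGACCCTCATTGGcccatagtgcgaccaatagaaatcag
Canx: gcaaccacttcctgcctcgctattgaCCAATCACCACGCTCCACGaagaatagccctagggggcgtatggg
Creld2: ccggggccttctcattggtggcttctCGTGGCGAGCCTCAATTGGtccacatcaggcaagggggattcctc

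Promoters were also searched for the sterol regulatory element (TCACNCCAC), which was found in 1.24% of all promoters. By gene it was in 1.34% of tested genes, in 1 of the 120 called higher and in 2 of the 156 called lower. In the cholesterol list it was in 1 of the 13 genes with a promoter. That gene is Hmgcs1, which encodes the enzyme that makes the precursor of mevalonate. The CCAAT box was found in all 13, in 43% of tested genes, in 49.2% of those called higher and in 51.3% of those called lower. The cyclic AMP response element (TGACGTCA) was in 7 of the 120 called higher, in 6 of the 156 called lower and in 3.78% of tested genes. In total 9 motifs were searched after the changes had been seen.

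The cells differed in depth in ways that did not follow the treatment. The median UMIs per β-cell were 20584 and 26709 in the Untreated libraries of replicates 1 and 2 and 29730 and 24193 in the NMMA libraries, so the NMMA cells were deeper in replicate 1 and shallower in replicate 2. The summed β-cells held 14698913 to 34665418 UMIs per library. The median share of mitochondrial UMIs was 4.78% and 4.08% untreated and 3.84% and 4.49% with NMMA, again in opposite order. Ins1 and Ins2 made up a median of 42.1% and 39.7% of the UMIs of untreated β-cells and 42.8% and 38.7% of those of NMMA β-cells. The cells were chosen by these quantities (UMIs, genes, mitochondrial share and the 6 hormone genes), which are given without a test. Few cells lay near the insulin limit, with 0 to 2 β-cells of a library between 10% and 11% insulin UMIs and 0 to 3 barcodes between 9% and 10%. Near the mitochondrial limit 13 to 47 β-cells of a library had 9% or more and 7 to 31 barcodes had 10% to 11%. Near the upper limit on genes, 10 to 49 β-cells of a library had more than 5250 (replicate 1) or 6250 (replicate 2). Just above that limit, up to 5750 or 6750 genes, lay 13 to 37 barcodes. No 2 of these libraries shared more than 1 β-cell barcode.

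The label of the cells was checked on genes that the rule did not use. Iapp, which encodes the peptide released with insulin, was at 53111 and 37660 CPM (UMIs relative to the library total after TMM scaling) in the Untreated libraries and at 50147 and 33765 CPM with NMMA. Its 95% interval was the narrowest of the genes tested, at −0.27 to 0.03 on the log2 scale. Nkx6-1, a β-cell transcription factor, was at 210 and 166 CPM untreated and 184 and 160 CPM with NMMA, and the groups overlapped. Red blood cell markers were at 0 in all 4 libraries.

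Markers of other pancreatic cells were present at low levels and differed between libraries. The 14 acinar markers, digestive enzymes such as Prss2 and Ctrb1, summed to 61.0 CPM untreated and 369 CPM with NMMA in replicate 1, and to 0.187 and 7.35 CPM in replicate 2. Of these, 13 were tested, and 0 were called by edgeR or DESeq2 and 0 had an unadjusted p under 0.05, with a median log2 change of 2.16. Mesenchymal markers summed to 1.26 and 1.06 CPM untreated and 2.09 and 64.2 CPM with NMMA, so 1 NMMA library stood apart, and endothelial markers to 6.56 and 5.56 CPM against 6.88 and 15.02 CPM. Macrophage markers summed to 73.7 and 78.8 CPM untreated and 60.8 and 47.7 CPM with NMMA, of which C1qa gave 24.2 to 66.8 CPM. A UMI of an acinar marker was found in 60.9% and 0.56% of untreated and in 50.7% and 16.4% of NMMA β-cells. With those barcodes left out, a choice made after these values were seen, 245 genes were called in place of 346, and 214 of the 245 were among the 346. In replicate 1 the share of barcodes with an acinar UMI was lower with NMMA while the summed acinar CPM was higher. In replicate 2 both were higher. A sum alone does not separate more barcodes with such RNA from more of it per barcode.

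With NMMA alone, 11 of 31 tested genes of the integrated stress response rose and 0 fell, 9 of 25 chaperones and folding enzymes of the endoplasmic reticulum rose and 1 fell, and 7 of 21 genes of cholesterol synthesis and uptake fell and 0 rose. In sums of β-cells per library, tested with edgeR with the replicate in the model, 346 of 12701 genes differed at a Benjamini-Hochberg adjusted p under 0.05 (2.72%), of which 152 were higher (1.2%) and 194 lower (1.53%) with NMMA. All 346 had the same sign in both replicates, but a fit paired by replicate favours such genes, so this agreement is no separate evidence. The median size of the change of the called genes was 0.57 on the log2 scale, and 40 of them changed by more than 2-fold, 18 upward and 22 downward. The calls depended on pairing the libraries by replicate: without the replicate in the model 0 genes were called by edgeR, while 929 had an unadjusted p under 0.05 (2259 with it), and DESeq2 with the replicate called 235. An exact permutation of 2 against 2 libraries cannot go below p = 0.33, and 2 pairs cannot go below 0.5, so a single value has no test of its own here.

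The libraries also weighed unequally. Without Untreated replicate 1, 19 genes were called, of which 7 were among the 346. Without NMMA replicate 1, 37 were called, of which 9 were among the 346, and the balance turned to 30 higher and 4 lower, the rest having no finite estimate. Without Untreated replicate 2 there were 205 calls (143 among the 346) and without NMMA replicate 2 there were 128 (90 among the 346). The fitted changes of the 346 genes kept their sign in each of these 4 fits, which still share 3 of the 4 libraries with the full fit.

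**Figure D1:**
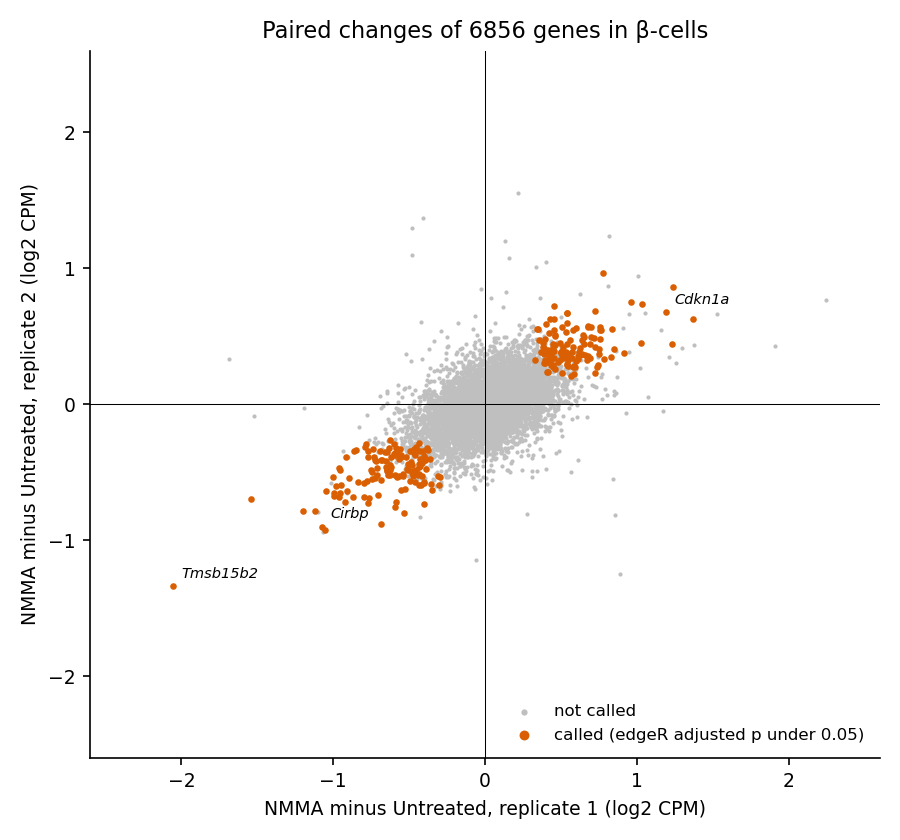
Change in β-cells with NMMA in replicate 1 (x axis) and in replicate 2 (y axis), in log2 CPM, for 6856 genes with a mean of at least 10 CPM. Orange points are called genes, which all lie at the lower left and upper right of the origin, and 3 genes (Ctrb1, Prss2 and Try5) lie outside the axes.

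The paired changes were alike but not equal between replicates. Over the 6856 genes with a mean of at least 10 CPM, the changes of replicate 1 and replicate 2, which share no library, correlated across genes with Pearson's r = 0.56 and Spearman's rho = 0.50, and 66.6% of genes had the same sign. Genes are not independent replicates, so no p is given. The SD of the paired changes was 0.27 in replicate 1 and 0.23 in replicate 2 on the log2 scale, where counting alone would give 0.094 and 0.11. The difference between the replicates themselves was larger, with an SD of 0.47 in the Untreated and 0.47 in the NMMA libraries. Over all 12701 genes tested, both NMMA values lay above or both below the Untreated values for 4802 (37.8%), so a lack of overlap was common and is given for single genes as a description only.

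For most genes the data bounded the effect of NMMA alone. The 95% interval of the log2 change had a median half-width of 0.30, which is 1.23-fold. Equivalence within 2-fold, tested by a pair of one-sided tests and adjusted over all genes, was reached by 10696 genes (84.2%). The gene's own interval lay within 2-fold for 10384 genes (81.8%) and within 1.5-fold for 7729 (60.9%). Of the 6856 genes at 10 CPM or more, 6769 (98.7%) were bounded within 2-fold. Only 11 genes had an interval wholly beyond a 2-fold change, and 64 had one beyond 1.5-fold. Most genes under 1 CPM were not bounded by these libraries, since 4.76% of 1260 had an interval within 2-fold. For scale, cytokines alone changed 7785 genes (61.3%, with 31.2% higher and 29.8% lower) and left 56.5% bounded within 2-fold in the same fit, with a median size over all genes of 0.54 on the log2 scale against 0.16 for NMMA.

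**Figure D2:**
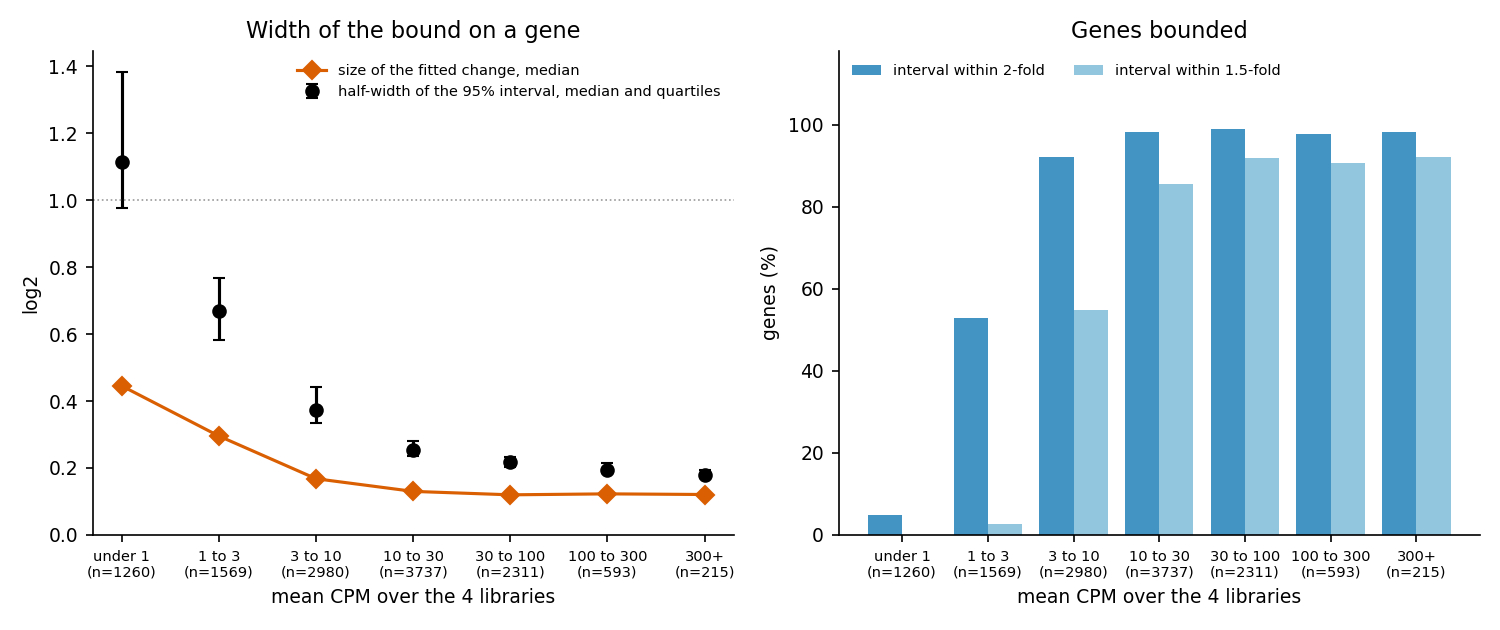
Bounds on the NMMA effect by expression level (x axis, mean CPM over the 4 libraries). Left, median half-width of the 95% interval with quartiles (black) and median size of the fitted change (orange), both in log2. Right, percentage of genes whose interval lies within 2-fold or 1.5-fold. Half-widths fall from 1.11 under 1 CPM to 0.18 at 300 CPM and over.

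Nitric oxide synthases were near absent from these β-cells. Nos2 (chromosome 11, 78920787 to 78960254 in GENCODE M21 on GRCm38) had 1 UMI in NMMA replicate 1 and 0 in the other 3 libraries, where 0 counts allow up to 3. Nos1, the neuronal synthase, had 5 and 1 UMIs untreated and 2 and 2 with NMMA and was below the filter on low counts. Nos3, the endothelial synthase, was at 0.925 and 0.749 CPM untreated and 0.611 and 0.561 CPM with NMMA. Its log2 change was −0.55 (95% interval −1.45 to 0.36, adjusted p = 0.54), too wide to bound it within 2-fold. Ddah1, which degrades methylated arginines, had 5 UMIs untreated and 2 with NMMA in all, and Arg2 had 0. Gch1, which makes the synthase cofactor, was at 322 and 334 CPM untreated and 386 and 341 CPM with NMMA, a change of 0.14 with an interval of −0.04 to 0.33, so any change lay well within 1.5-fold.

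Among genes of nitric oxide synthesis and arginine supply, 26 of 34 were tested, 2 rose and 1 fell, with a median log2 change of 0.05 against 0.004 over all genes tested. Slc7a1, the cationic transporter that takes up arginine, was at 18.8 and 21.2 CPM untreated and 29.5 and 30.1 CPM with NMMA. Both NMMA libraries lay above both Untreated libraries, and Slc7a1 rose by 0.58 ± 0.11 (SE, adjusted p = 0.014). Odc1, which makes putrescine from ornithine, was at 39.2 and 60.1 CPM untreated and 57.8 and 83.6 CPM with NMMA. The groups overlapped, but Odc1 was higher with NMMA within each replicate and rose by 0.52 ± 0.10 (adjusted p = 0.020). Pts, an enzyme of tetrahydrobiopterin synthesis, was at 93.1 and 67.7 CPM untreated and 70.8 and 50.8 CPM with NMMA, also with overlap, and fell by 0.40 on the log2 scale (adjusted p = 0.034). Slc7a2, a second arginine transporter, changed by −0.31 (interval −0.53 to −0.09, adjusted p = 0.12), Ass1 by −0.58 (adjusted p = 0.21) and Asl by −0.31 (adjusted p = 0.21). The last 2 make arginine from citrulline. Of the 18 tested genes of cGMP signalling, the pathway downstream of nitric oxide, and mitochondrial biogenesis, Pde1c, a cyclic nucleotide phosphodiesterase, rose by 0.50 ± 0.12 (adjusted p = 0.031) and 0 fell. Of the 8 arginine methyltransferases tested 0 were called by edgeR or DESeq2 and 1 had an unadjusted p under 0.05, and all 8 were bounded within 2-fold.

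The integrated stress response list held the most called members. Of its 31 tested genes 11 rose and 0 fell, and all 31 fitted changes were above 0, with a median of 0.51 (0.65 in replicate 1 and 0.36 in replicate 2). Slc7a11, the cystine-glutamate exchanger and an ATF4 target, was at 1.99 and 2.37 CPM in the Untreated libraries and at 6.93 and 4.67 CPM with NMMA. The groups did not overlap, and Slc7a11 rose 2.80-fold, by 1.48 ± 0.25 (interval 0.95 to 2.02, adjusted p = 0.011). Its promoter window holds the element on both strands. Chac1, which degrades glutathione, rose from 16.1 and 16.5 CPM to 29.1 and 21.9 CPM, by 0.65 ± 0.14 (adjusted p = 0.028). Atf4 itself, at 153 and 167 CPM untreated and 246 and 212 CPM with NMMA, rose by 0.51 ± 0.12 (adjusted p = 0.046).

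Other transcription factors of the programme moved with Atf4, as Atf5 rose by 0.49 and Cebpg, an ATF4 partner, by 0.50. Amino acid genes among those called were Mthfd2 (0.66) and Phgdh (0.58), which serve one-carbon and serine metabolism, Slc38a2 (0.62), a neutral amino acid transporter, and Asns (0.40), asparagine synthetase. Herpud1, a factor of endoplasmic reticulum-associated degradation, was at 163 and 155 CPM untreated and 257 and 212 CPM with NMMA and rose by 0.55 ± 0.09 (adjusted p = 0.0072). Vldlr, a lipoprotein receptor, rose by 0.52. In all 11 called genes of the list both NMMA libraries lay above both Untreated libraries. Atf3 (1.004, adjusted p = 0.15) and Trib3 (0.85, adjusted p = 0.46) did not pass the test.

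Aminoacyl-tRNA synthetases, which charge tRNAs and are ATF4 targets in part, had 4 of 20 tested genes higher and 0 lower, with a median of 0.19. Cars, the cysteine enzyme, was at 28.0 and 27.6 CPM untreated and 47.2 and 36.7 CPM with NMMA and rose by 0.59 ± 0.11 (adjusted p = 0.014). The enzymes for asparagine, threonine and methionine, Nars, Tars and Mars, rose by 0.47, 0.42 and 0.39. Of the 20 fitted changes 6 lay below 0, and all 20 were bounded within 2-fold.

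**Figure D3:**
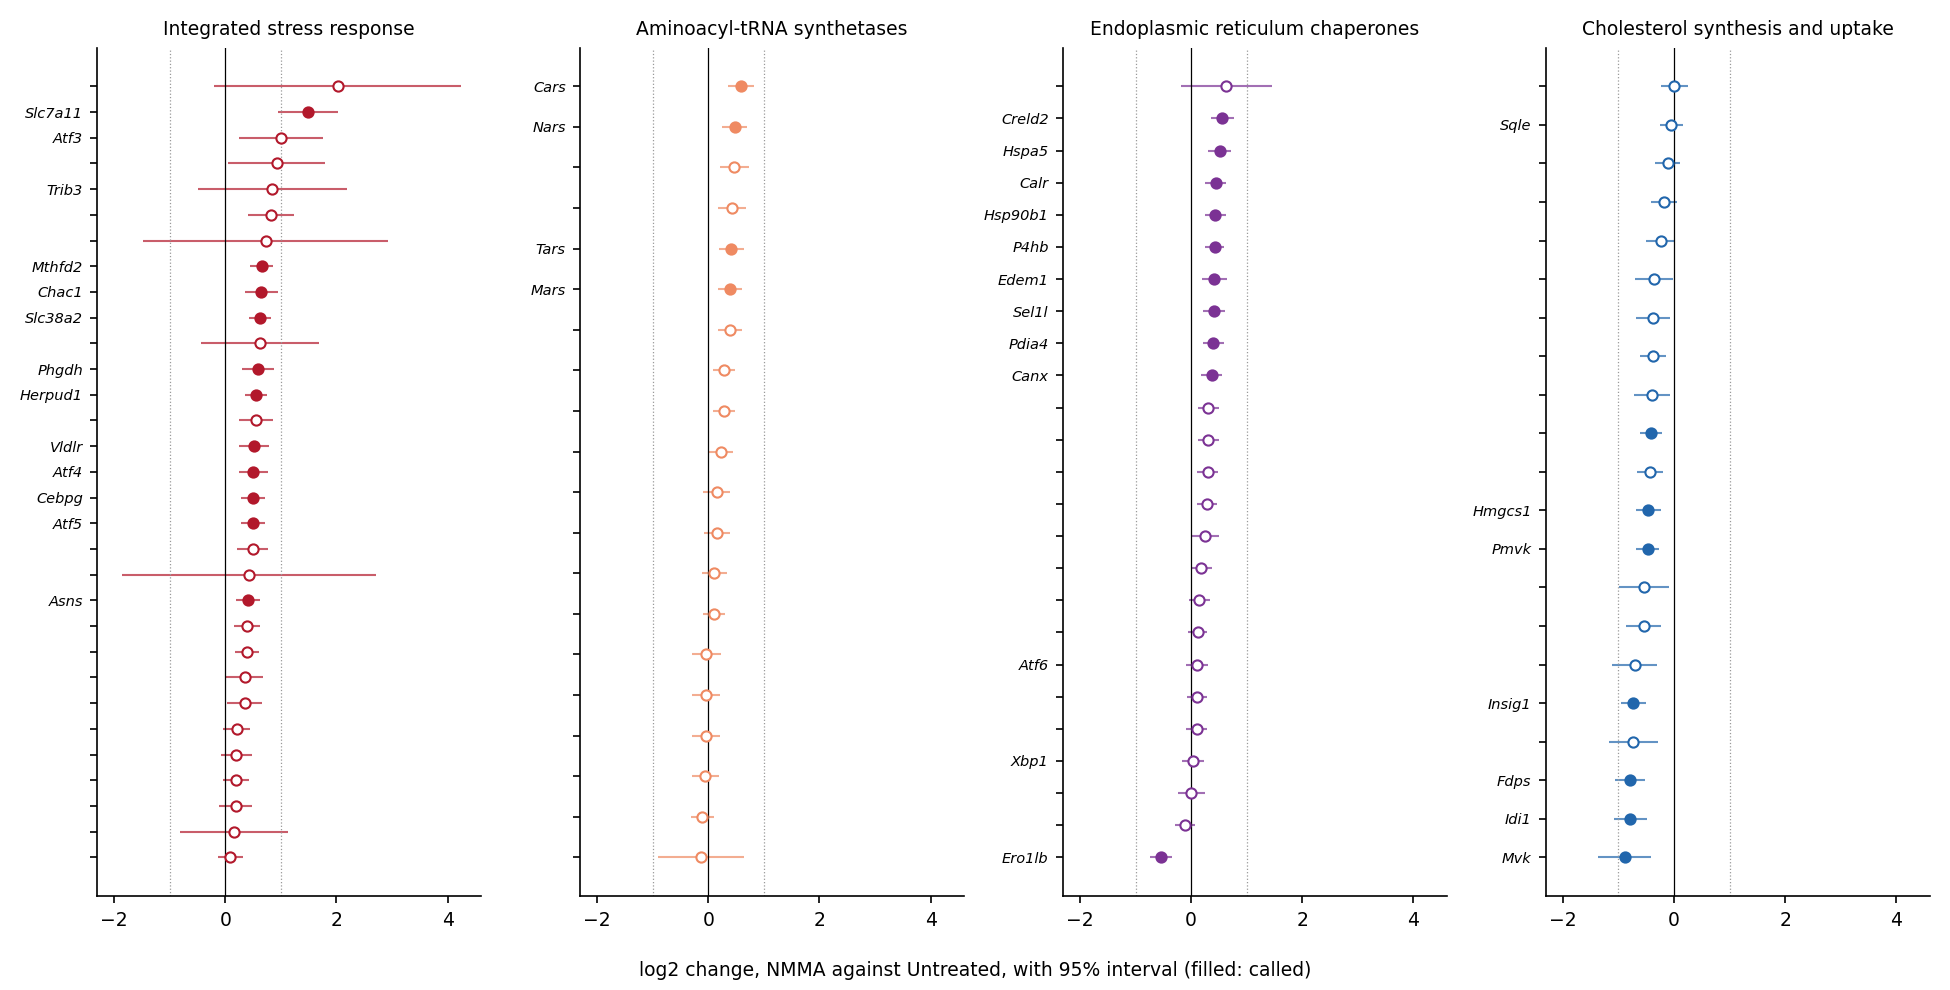
Log2 change with NMMA alone against untreated (x axis) for each tested gene of 4 lists, with 95% intervals from edgeR. Filled points passed the adjusted p of 0.05, names are given for genes described in the text, and dotted lines mark 2-fold. All 31 genes of the integrated stress response list lie above 0, and 20 of the 21 cholesterol genes lie below 0.

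Called chaperones and folding enzymes of the endoplasmic reticulum changed by at most 0.56 on the log2 scale. Of 25 tested genes 9 were higher and 1 lower, with a median of 0.30, and 24 were bounded within 2-fold. Hspa5 (BiP, chromosome 2, 34771970 to 34777547), the main luminal chaperone, was at 884 and 1042 CPM untreated and 1483 and 1272 CPM with NMMA. Both NMMA libraries lay above both Untreated libraries, and Hspa5 rose 1.43-fold, by 0.51 ± 0.10 (adjusted p = 0.017). Calr, a lectin chaperone, was at 1010 and 1141 CPM untreated and 1453 and 1472 CPM with NMMA and rose by 0.44 ± 0.09 (adjusted p = 0.021). Creld2, an isomerase induced by folding stress, rose by 0.56, Hsp90b1 by 0.43, the disulfide isomerases P4hb and Pdia4 by 0.42 and 0.40, Canx by 0.37, and the degradation factors Edem1 and Sel1l by 0.42 and 0.41. Ero1lb, the β-cell oxidase that supports proinsulin folding, moved the other way, from 412 and 384 CPM to 268 and 279 CPM, and fell by 0.54 on the log2 scale (adjusted p = 0.0073). Xbp1 (interval −0.16 to 0.24) and Atf6 (interval −0.09 to 0.30) did not pass the test.

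Of the 21 tested genes of cholesterol synthesis and uptake 7 were lower and 0 higher, 20 of 21 fitted changes were below 0, and the median was −0.43 (−0.49 in replicate 1 and −0.37 in replicate 2). Insig1 was at 44.0 and 38.4 CPM untreated and 25.8 and 23.8 CPM with NMMA. The groups did not overlap, and Insig1 fell by 0.73 on the log2 scale (SE 0.10, adjusted p = 0.0050). Fdps, farnesyl diphosphate synthase, was at 87.7 and 87.5 CPM untreated and 44.3 and 57.6 CPM with NMMA and fell by 0.78 (SE 0.13, adjusted p = 0.0080). Idi1, Mvk, Pmvk and Hmgcs1, enzymes of the mevalonate pathway, changed by −0.79, −0.89, −0.47 and −0.46, and all were called. Sqle, squalene epoxidase, changed by −0.05 (interval −0.25 to 0.16) and did not pass the test.

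None of these list calls was made without the replicate in the model, and none was made without Untreated replicate 1 or without NMMA replicate 1. The medians kept their sign in each of these fits, at 0.27 and 0.51 for the integrated stress response, 0.22 and 0.24 for the chaperones and −0.45 and −0.41 for cholesterol genes without Untreated replicate 1 and without NMMA replicate 1. With barcodes holding acinar UMIs left out, the calls were 10, 8 and 6 of the 11, 9 and 7.

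**Figure D4:**
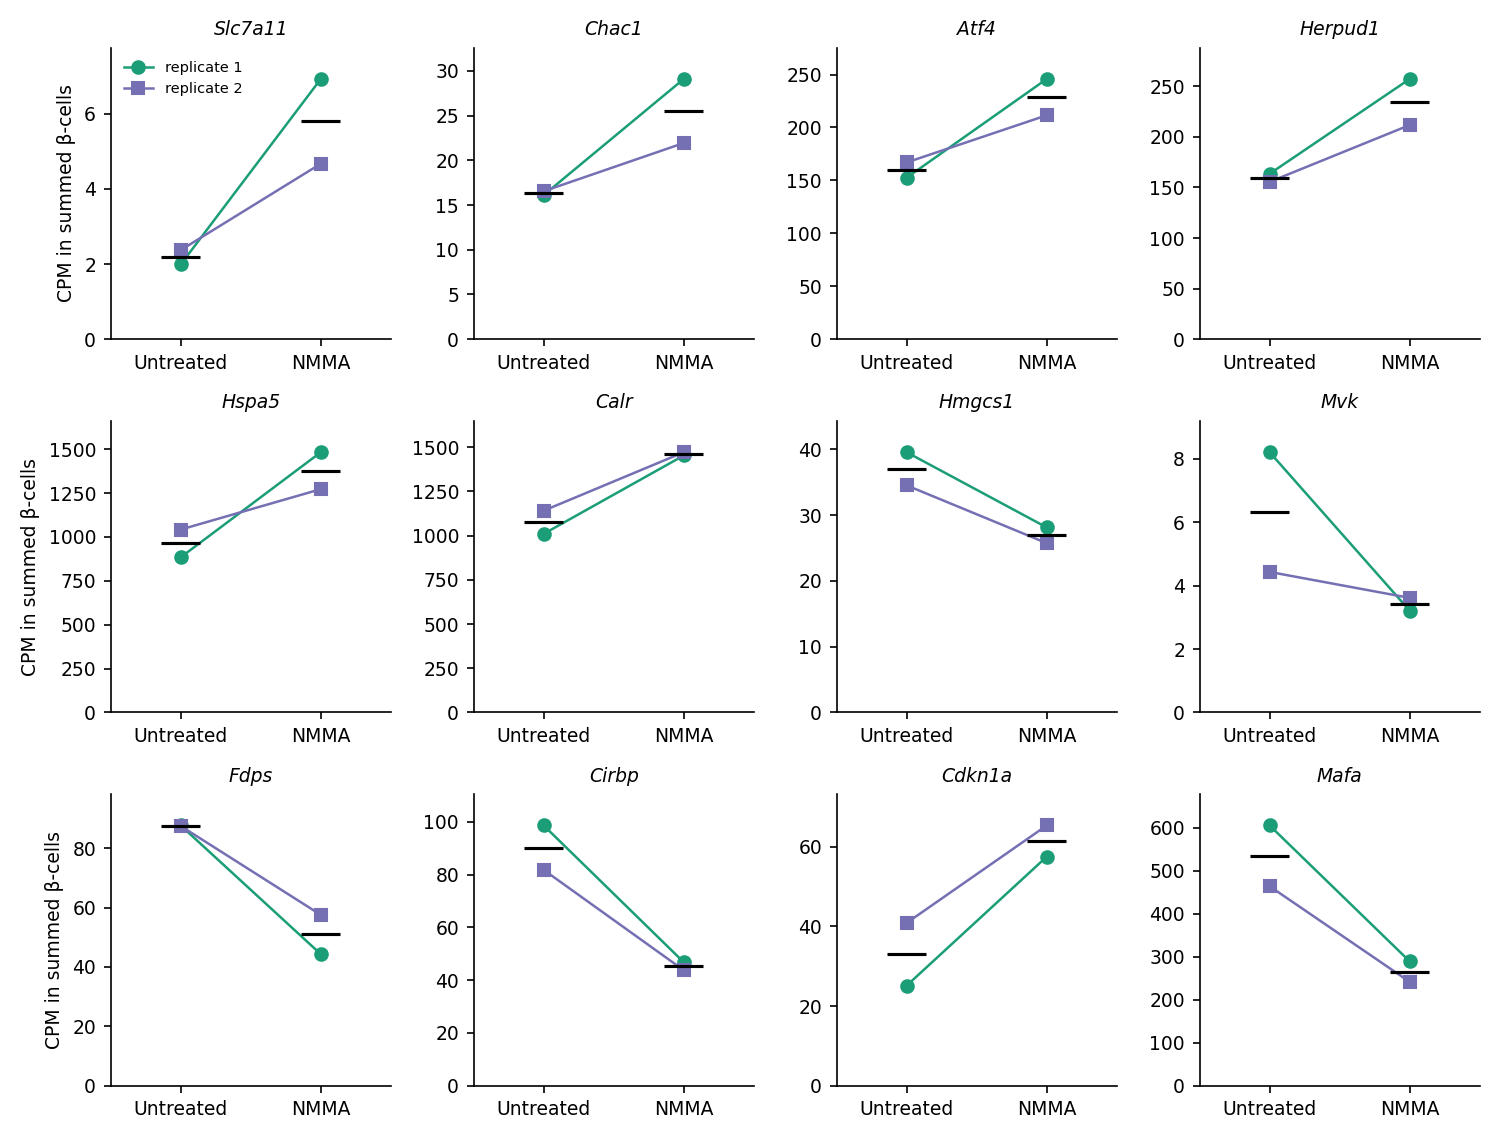
CPM of 12 genes in the summed β-cells of each library (y axes from 0), with lines joining the Untreated and NMMA libraries of a replicate and black bars at the mean of 2 libraries. The lines of both replicates run the same way in all 12 genes, and Mafa did not pass the adjusted p of 0.05.

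Some of the clearest single genes lay outside these lists. Cirbp, the cold-inducible RNA-binding protein (chromosome 10, 80165985 to 80172786), had the smallest adjusted p. It was at 98.6 and 81.8 CPM untreated and 46.8 and 43.7 CPM with NMMA, without overlap, and fell by 0.99 on the log2 scale (interval −1.20 to −0.78, adjusted p = 0.00034). Rbm3, a second cold-inducible RNA-binding protein that was looked up after the values were seen, went from 191 and 183 CPM to 95.7 and 116 CPM and fell by 0.82 (adjusted p = 0.014). Rgs4, a regulator of G protein signalling, went from 41.9 and 53.2 CPM to 98.95 and 96.8 CPM and rose by 1.05 ± 0.13 (adjusted p = 0.0050).

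Cdkn1a, which encodes the cell cycle inhibitor p21, was at 25.1 and 40.9 CPM untreated and 57.5 and 65.4 CPM with NMMA and rose by 0.93 ± 0.13 (adjusted p = 0.0050). Tnfrsf12a, the TWEAK receptor, rose by 0.87, the phosphatase gene Dusp8 by 0.71, the kinase gene Map3k1 by 0.70 and the nuclear RNA Neat1 by 0.65. Cnnm1 (1.04), Chd2 (0.90), Gramd1b (0.88) and Resf1 (0.76) were the other largest increases among genes at 10 CPM or more. The largest decreases were Tmsb15b2 (−1.68), Gm16124 (−1.16), Csad, a taurine synthesis enzyme (−1.01), Gnat2, a transducin subunit (−1.003), Isoc2b (−0.97), Cryl1 (−0.86), Mthfd2l (−0.86) and Spa17 (−0.83). Tmsb15b2 differed more between replicates than between groups, at 36.2 and 119 CPM untreated and 8.61 and 47.2 CPM with NMMA. Clec11a, Shisal2b and Vps8 were also among the 10 smallest adjusted p, with changes of −1.34, −0.78 and −0.81.

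Of 25 tested genes that mark β-cell identity 3 were called and 12 had an unadjusted p under 0.05. Over all 12701 genes tested 346 (2.72%) were called and 2259 had an unadjusted p under 0.05. Insm1, a zinc finger factor of endocrine cells, rose by 0.39, while Trpm5, a calcium-activated channel, fell from 100 and 86.2 CPM to 52.9 and 52.3 CPM, by 0.83 on the log2 scale (adjusted p = 0.0062). Ero1lb, described with the chaperones, was the third. Mafa, a transcription factor of mature β-cells, was at 605 and 464 CPM untreated and 289 and 241 CPM with NMMA. The groups did not overlap, and the change was −1.01 with an interval of −1.55 to −0.47, but the adjusted p was 0.084. Slc2a2, the glucose transporter GLUT2, was at 131 and 87.2 CPM untreated and 69.8 and 55.3 CPM with NMMA, a change of −0.80 (interval −1.23 to −0.37, adjusted p = 0.071). Pdx1 was at 128 and 116 CPM against 108 and 80.3 CPM, a change of −0.38 (interval −0.60 to −0.16, adjusted p = 0.059), and Ucn3, a maturity marker, changed by −0.34 (adjusted p = 0.17). Scaling by total UMIs gave 4 lower calls in this list and 0 higher, and DESeq2 gave 4 lower and 1 higher. The list median was −0.07, and 21 of 25 genes were bounded within 2-fold, where 84.2% of all genes tested were.

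Of the 8 tested α-cell markers 2 rose and 0 fell. Gc, one of them, was at 4.04 and 5.99 CPM untreated and 6.73 and 11.1 CPM with NMMA and rose by 0.81 (adjusted p = 0.029). Gcg, which the rule used, was at 136 and 288 CPM untreated and 152 and 608 CPM with NMMA, and the summed α-cell markers were at 1307 and 1382 CPM untreated and 1404 and 1669 CPM with NMMA, higher with NMMA in both replicates. The part of residual α-cell RNA in the change of Gc was not tested, but Ttr, an abundant α-cell marker, was at 189 and 163 CPM untreated and 185 and 171 CPM with NMMA.

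Of 48 tested interferon and cytokine-response genes 1 rose and 1 fell, 7 had an unadjusted p under 0.05, and the median was 0.03. Of the 48, 24 were bounded within 2-fold and the others were not. Nfkbiz, an NF-κB cofactor, rose by 0.68, and Cxcl10, a chemokine, went from 2.33 and 1.69 CPM to 0.917 and 0.249 CPM and fell by 1.70 on the log2 scale (adjusted p = 0.024). Gbp2 had 58 and 41 UMIs untreated and 38 and 37 with NMMA, a change of 0.12 with an interval of −1.04 to 1.29, and Icam1 had 22 UMIs untreated and 5 with NMMA in all, too few to bound. Defb1, an antimicrobial peptide gene, was at 21.5 and 26.9 CPM untreated and 40.5 and 39.8 CPM with NMMA, a change of 0.74 (interval 0.30 to 1.18, adjusted p = 0.093).

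Heat shock and other genes that respond to nitric oxide had 0 calls of 19 by edgeR or DESeq2 and 5 with an unadjusted p under 0.05, and their levels differed between replicates. Hspa1a was at 53.1 and 226 CPM untreated and 120 and 219 CPM with NMMA, so the groups overlapped, and its interval ran from −1.14 to 2.06. Hspa1b was at 19.7 and 147 CPM against 74.3 and 199 CPM (interval −0.77 to 2.82). Hmox1, heme oxygenase, was at 45.3 and 36.8 CPM untreated and 79.6 and 67.4 CPM with NMMA, a change of 0.86 with an interval of −0.29 to 2.01. Hspa8, the constitutive member, was at 656 and 597 CPM against 700 and 667 CPM (interval −0.46 to 0.72), and Dnajb1 changed by 0.60 (interval −1.06 to 2.25). Ddit3, which encodes CHOP, was at 57.5 and 129 CPM untreated and 110 and 124 CPM with NMMA. The groups overlapped and the replicates disagreed in direction (0.93 and −0.06), and the change was 0.36 with an interval of −1.09 to 1.82. A second identifier carries the name Ddit3 in one of the gene lists, so its counts could be divided between them. Of the 19 genes 12 were bounded within 2-fold, Hspa8 among them, while Hspa1a, Hspa1b, Hmox1, Dnajb1 and Ddit3 were not. The list median was 0.52 in replicate 1 and 0.11 in replicate 2, and without Untreated replicate 2, 6 of the 19 were called higher.

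Large groups of energy metabolism and translation were bounded throughout, but so were 98.7% of all genes at 10 CPM or more. Over all 12701 genes tested 2259 had an unadjusted p under 0.05. All 53 nuclear genes of oxidative phosphorylation were bounded within 2-fold, with 0 called by edgeR or DESeq2, 9 at an unadjusted p under 0.05 and a median of 0.04, and so were all 32 genes of glycolysis and the citric acid cycle, of which Fh1, fumarate hydratase, fell by 0.51 (adjusted p = 0.020). All 82 cytosolic ribosomal protein genes were bounded, with 6 called, 27 at an unadjusted p under 0.05 and a median of 0.01. Rps28, Rpl37, Rpl38, Rpl39 and Rpl41 rose by 0.33 to 0.50, and Rpl22l1 fell by 0.36. Rps28 was at 262 and 846 CPM untreated and 407 and 1095 CPM with NMMA, higher with NMMA in each replicate although the replicates, which were counted on different gene lists, lay further apart than the groups. Rps24, with one of the narrowest intervals, changed by −0.04 (interval −0.20 to 0.13), Rps14 by −0.07 and Rpl13 by −0.08.

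The remaining lists are given beside the 2.72% of all 12701 genes tested that were called and the 2259 with an unadjusted p under 0.05. Of 24 tested antioxidant genes 3 were called. Slc7a11 and Gpx1 (0.44) rose. Fth1, ferritin heavy chain, went from 1189 and 1080 CPM to 868 and 868 CPM and fell by 0.38 on the log2 scale (adjusted p = 0.025). Of 19 tested immediate early genes 3 were called and 7 had an unadjusted p under 0.05. Jun (0.52) and Klf6 (0.59) rose, and Egr1 went from 73.6 and 105 CPM to 59.6 and 69.8 CPM and fell by 0.45. Pam, which amidates peptide hormones, rose by 0.40 and Cry1, a circadian repressor, by 0.59. Cdkn1a was the 1 called gene of 17 cell death genes. By edgeR and by DESeq2 0 genes were called of 23 of secretion and exocytosis (8 at an unadjusted p under 0.05), 9 disallowed genes (1), 9 cell cycle genes (1) and 13 mitochondrially encoded genes (0). Of macrophage markers C1qa fell by 0.68, from 66.8 and 40.9 CPM to 44.2 and 24.2 CPM with overlap, while the other 7 tested macrophage markers did not pass the test.

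The change with NMMA alone differed from the change with NMMA in the presence of cytokines. The contrast of both differences, which share no library, was called for 3334 of 12701 genes (26.2%), and NMMA changed 4985 genes (39.2%, with 19.6% higher and 19.7% lower) when cytokines were present. The integrated stress response list had a median of 0.51 with NMMA alone and −0.02 in cytokines, and 14 of its 31 genes differed between the settings. Atf4 changed by 0.51 alone and by −0.24 in cytokines, a difference of −0.75 ± 0.17 (adjusted p = 0.0070). Slc7a11 rose by 1.48 alone and changed by 0.51 in cytokines, and Chac1 changed by 0.65 and 0.59, a difference of −0.06 that was not called. Chaperones had medians of 0.30 and 0.29, and Hspa5 differed by −0.32 (adjusted p = 0.10).

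Cholesterol genes had medians of −0.43 alone and −0.20 in cytokines. Insig1 changed by −0.73 and −0.82 and Idi1 by −0.79 and −0.83 in the respective settings, with differences of −0.09 and −0.05 that were not called, while Pmvk, at −0.47 and 0.27, differed by 0.74 (adjusted p = 0.0013). Heat shock genes had medians of 0.27 alone and −0.75 in cytokines, and 11 of 19 differed. Mafa changed by −1.01 alone and 1.15 in cytokines, a difference of 2.16 (adjusted p = 0.0067), and Pdx1 by −0.38 and 1.18, a difference of 1.56 (adjusted p = 1.17e-05). The 5 smallest adjusted p of the difference belonged to Pde10a, C2cd4b, Egr1, Hist1h1c and Scd2, for which the change was −0.45 to −0.07 with NMMA alone and 1.67 to 2.26 in cytokines.

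**Figure D5:**
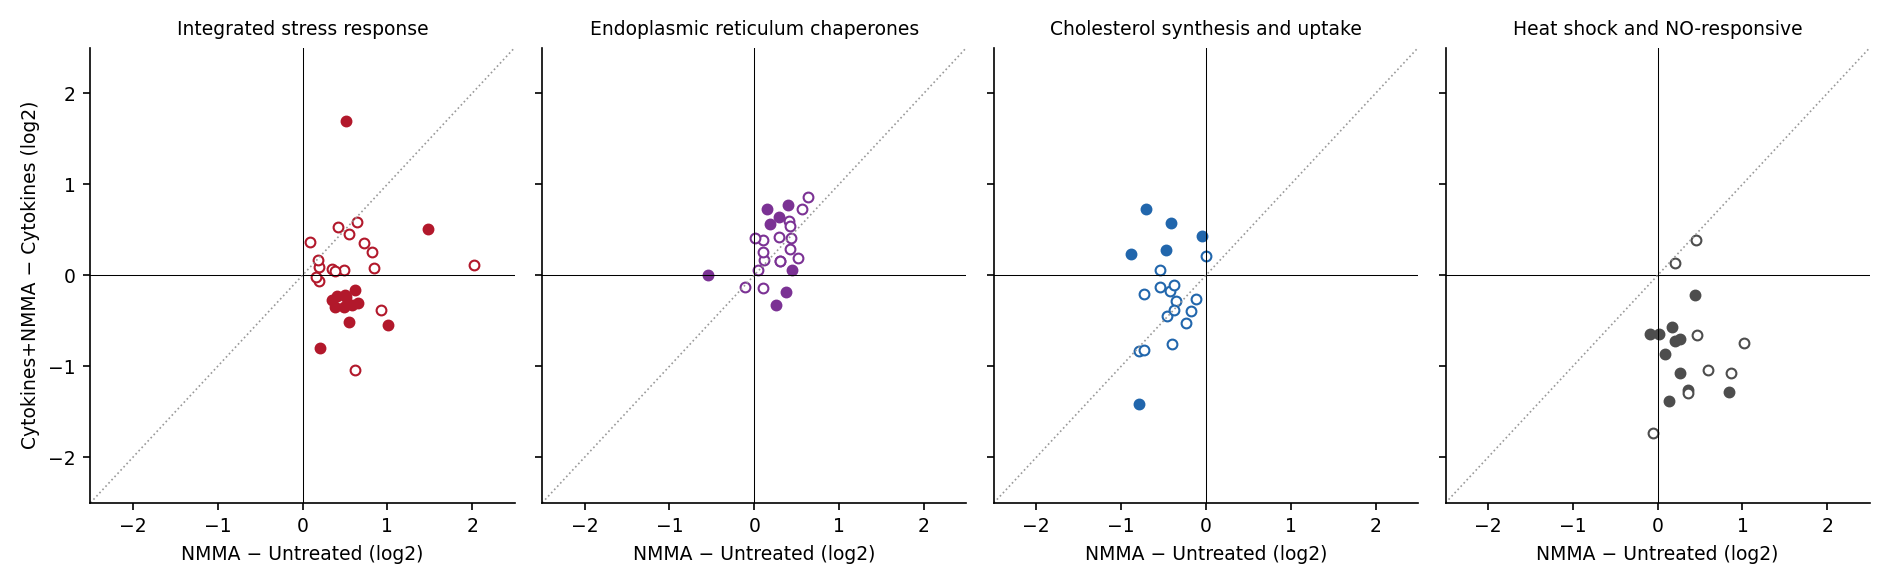
Log2 change with NMMA alone (x axes) and with NMMA in the presence of cytokines (y axes) for the tested genes of 4 lists, with filled points where the difference between both was called and a dotted line of equal change. Integrated stress response genes lie right of 0 on the x axis and around 0 on the y axis, with a median of −0.02, and heat shock genes mostly lie below 0 on the y axis.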

How the data were processed

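Per the file headers and labels, the authors deposited unnormalized UMI counts for each gene in each barcode, from Cell Ranger with mm10 (gene lists of 31053 identifiers in replicate 1 and 32285 in replicate 2); 30406 shared identifiers held at least 99.7% of UMIs. No doublets were called here. UMIs of β-cells were summed per library, and all 8 libraries were fitted together with edgeR 4.0.16 (R 4.3.3; TMM scaling, quasi-likelihood test, Benjamini-Hochberg adjustment, condition plus replicate) on 12701 genes that passed edgeR's low-count filter. Per the methods, replicate numbers mark shared islet pools. Same-numbered libraries deviated together (r = 0.72 to 0.87). The replicates also differed in gene lists and in Cell Ranger version (3.0.0 and 6.0.0 in the headers), so this correlation does not test the pooling. Each replicate is 1 pool, so p-values cover the spread between these libraries only. Intervals are 95% intervals of the log2 change. Named genes were members of the lists that passed the test, preset genes, the 10 largest changes in each direction at 10 CPM or more, the 10 smallest adjusted p, the 5 smallest p of the difference and the narrowest intervals. Some genes that meet this rule are not reported here. Members and lists were chosen with earlier results of these data known. DESeq2 1.42.0 and limma 3.58.1 were alternatives. The model was tested on simulated data.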

Additional observations from a re-analysis of the deposited data

Results flagged for a closer look

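For many of the genes named, the change with NMMA differed between islets with and without cytokines by the interaction contrast of edgeR, which called 26.2% of all genes. Values are log2 differences, with cytokines minus without. In the integrated stress response list they were Mthfd2 (−0.96), Phgdh (−0.91), Slc38a2 (−0.79), Atf5 (−0.84), Atf4 (−0.75), Cebpg (−0.71), Asns (−0.63), Slc7a11 (−0.98) and Vldlr (1.18), so 8 of these 9 genes rose less or fell with cytokines present and Vldlr rose more. The tRNA synthetases differed alike, by Cars (−0.69), Nars (−0.84), Tars (−0.55) and Mars (−0.44).

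Members of the chaperone list were Canx (−0.55), Calr (−0.38), Pdia4 (0.37) and Ero1lb (0.54), and those of the cholesterol list were Pmvk (0.74), Mvk (1.121) and Fdps (−0.62). Genes of β-cell identity and hormone processing were Mafa (2.16), Pdx1 (1.56), Slc2a2 (1.02) and Pam (0.42), each less lowered or more raised when cytokines were present. Ribosomal protein genes were Rps28 (−0.96), Rpl37 (−0.87), Rpl38 (−0.78), Rpl39 (−0.75), Rpl41 (−0.40), Rps14 (−0.56), Rpl13 (−0.44) and Rps24 (−0.43), all below 0. Genes of arginine supply and cofactor synthesis were Odc1 (0.83), Pts (0.83), Slc7a1 (−0.52) and Slc7a2 (0.54).

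Cytokine-responsive, immediate early and marker genes were Cxcl10 (4.12), Defb1 (−1.56), Egr1 (2.71), Jun (−0.44), Klf6 (−1.07), C1qa (1.03) and Gc (−1.29). Of the other genes, those above 0 were Pde10a (2.45), C2cd4b (2.18), Hist1h1c (2.29), Scd2 (1.96), Fh1 (1.56), Shisal2b (1.56), Vps8 (1.40), Cirbp (0.99), Clec11a (2.01), Csad (1.503), Spa17 (0.97), Isoc2b (0.83) and Gramd1b (0.54), and those below 0 were Tnfrsf12a (−2.26), Dusp8 (−1.31), Neat1 (−0.94), Cry1 (−1.16), Gpx1 (−0.77), Map3k1 (−0.70), Resf1 (−0.70), Cnnm1 (−1.17), Hspa8 (−1.51) and Cdkn1a (−0.53).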

How the results depend on the processing

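The replicate block carried the calls of NMMA against untreated. In the fit without the replicate block 0 genes were called in place of 346, and 507 in place of 3334 for the difference between NMMA with and without cytokines. Calls for NMMA alone numbered 683 from the 4 libraries alone, 179 with total UMI scaling, 825 with no filter on low counts, 210 with cells thinned to 10000 UMIs and 134 with at most 5% mitochondrial UMIs, and 19 to 735 with 1 of the 8 libraries left out. Of the 346 genes, 344 were tested with the same sign when thinned, 345 at 5% mitochondrial UMIs and 288 at a filter of 10 CPM. The count does not separate a turned sign from a gene not tested there. In every other alternative all 346 kept their sign. For the difference, DESeq2 called 2129, thinned cells gave 1957, and leaving out 1 library gave 1603 to 3648. The number of genes bounded within 2-fold stayed within 1.5 times the full value in every alternative, as did the cytokine calls. Of the genes named, 6 turned sign with 1 library left out, none of them called there. With each library left out in turn the log2 change ran from −0.63 to 0.39 for Ddah2 (0.39 without NMMA replicate 1), from −0.21 to 1.07 for Ddit3, from −0.44 to 0.48 for Gbp2 (also −0.10 without NMMA replicate 2, and −0.12 without barcodes holding acinar UMIs), from −0.26 to 0.11 for Hist1h1c, from −0.17 to 1.28 for Hspa1a and from −0.067 to 0.31 for Hspa8 (−0.0073 without Untreated replicate 1); the sign of Ddit3, Gbp2, Hist1h1c and Hspa1a turned without Untreated replicate 1. The cause was not tested. Depth limits the bounds on genes under 1 CPM, and intervals cover 2 pools of islets only.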

Other observations

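Markers of PP-cells and δ-cells in the summed β-cells moved in opposite directions in the 2 replicates. PP-cell markers summed to 316 CPM untreated and 231 CPM with NMMA in replicate 1, and to 381 and 693 CPM in replicate 2. δ-cell markers summed to 94.9 and 54.8 CPM in replicate 1 and to 84.0 and 147 CPM in replicate 2. Ductal markers, at 478 and 557 CPM in replicate 1 and 529 and 590 CPM in replicate 2, were higher with NMMA in both. By edgeR and by DESeq2 0 of the 3, 4 and 7 tested markers of these cells were called, and 0, 1 and 1 had an unadjusted p under 0.05.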
